A study of Rattus norvegicus with 16 samples.

Results

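Crisp1, Lcn5, Lcn8, Adam7, Gpx5 and Cst11 are genes of the epididymis, the duct of the male tract in which sperm mature, and they were followed here in adipose tissue. In adipose tissue of 8 male rats, all 6 genes had a strong signal on the arrays of 1 control rat and 1 rat given house dust mite (HDM), and low signal or none on most of the others. The 6 genes were chosen for this signal, out of 16678 gene symbols that have a probe on the array, so their pattern over the adipose arrays is a description and carries no test. Each gene was taken at the probe with the highest mean signal in adipose tissue. The 6 genes have 7 probes in all, because Lcn8 has 2.

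Both adipose tissue and lung were profiled in these 8 animals, each on an array of its own, giving 16 one-color arrays. The rats were male Brown Norway rats, 7 weeks old at the start of treatment. Their age when tissue was taken is not given in the sources used here. The 5 HDM rats were injected under the skin with 45 µg of HDM in aluminum hydroxide, 1 time a week for 3 weeks, and then received 120 µg of HDM in saline through the nose, 3 times a week for 3 weeks. The 3 control rats received saline by both routes, again with aluminum hydroxide in the injections, so that adjuvant, strain and sex were shared by both groups. Which fat depot was taken is not given in the sources used here. Signals are given as log2 values relative to the 75th percentile of the same array, so that 0 is the brightness below which 75% of the probes lie. A probe well above background is one whose spots passed the scanner software's own test against background. Each tissue had a slide of its own with its 8 arrays, so tissue and slide cannot be told apart. On both slides HDM rats 1 to 4 lay in row 1, and HDM rat 5 and the control rats in row 2. Treatment and slide row therefore overlap in large part.

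The epithelium of the epididymis secretes proteins into the duct, where they bind to passing sperm or protect them, and much of this program depends on androgens and is restricted to particular segments of the duct. Crisp1 encodes a cysteine-rich secretory protein that binds to the sperm surface. Lcn5 and Lcn8 encode lipocalins, small carriers of hydrophobic molecules, and Lcn5 is known as an epididymal retinoic acid-binding protein. Gpx5 encodes a secreted glutathione peroxidase without selenocysteine, and Cst11 a secreted relative of the cystatin protease inhibitors. Adam7 encodes a membrane protein of the ADAM family that is passed from the epididymal epithelium to sperm. The probe named Crisp1 here is assigned to the gene that RefSeq now calls Crisp1 and lists under the older name Crisp4, so it is not the probe of another Crisp gene.

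Promoter sequence was at hand for 3 of the 6 genes, and it is shown because these 3 genes were high on the same arrays. Each sequence runs from 250 bases before to 50 bases after the RefSeq start of the gene (GRCr8 assembly, plus strand, 5′ to 3′). Capitals mark the letters TGTTCT, the half-site of the androgen receptor, and TATAAA, the TATA box, on either strand. They lie at chr3:28865811-28866110 (Lcn8), chr3:28871073-28871372 (Lcn5) and chr17:48131603-48131902 (Gpx5).
Lcn8: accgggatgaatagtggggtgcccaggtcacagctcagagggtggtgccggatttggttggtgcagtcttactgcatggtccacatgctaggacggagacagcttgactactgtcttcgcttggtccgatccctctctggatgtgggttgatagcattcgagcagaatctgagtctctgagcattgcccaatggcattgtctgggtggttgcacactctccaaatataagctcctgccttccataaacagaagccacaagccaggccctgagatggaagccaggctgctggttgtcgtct
Lcn5: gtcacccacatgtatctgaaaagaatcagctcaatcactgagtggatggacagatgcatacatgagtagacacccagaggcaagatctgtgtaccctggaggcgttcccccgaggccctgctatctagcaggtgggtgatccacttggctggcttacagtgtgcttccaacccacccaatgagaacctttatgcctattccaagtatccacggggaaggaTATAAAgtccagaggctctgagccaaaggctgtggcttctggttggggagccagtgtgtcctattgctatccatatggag
Gpx5: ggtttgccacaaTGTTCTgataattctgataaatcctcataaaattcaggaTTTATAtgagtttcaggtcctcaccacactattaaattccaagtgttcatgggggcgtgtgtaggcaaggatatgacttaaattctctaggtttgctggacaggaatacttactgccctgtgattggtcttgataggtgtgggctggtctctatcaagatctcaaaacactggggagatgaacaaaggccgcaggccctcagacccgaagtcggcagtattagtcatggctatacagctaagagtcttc

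The Gpx5 window held 1 TGTTCT, 238 bases before the start, and TTTATA, the reverse complement of TATAAA, 199 bases before the start. The Lcn5 window held TATAAA 30 bases before the start. The Lcn8 window held neither. Of 33469 rat promoter windows of this length, 20.7% held TGTTCT on either strand and 14.2% held TATAAA. The full androgen element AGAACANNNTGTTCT was in 5 of all windows and in none of the 3. The letters AGGAAG, read by ETS factors of the PEA3 type, were in none of the 3 and in 34.5% of all windows. A match describes the letters only.

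Gpx5 had a log2 signal of 9.61 in the adipose tissue of HDM rat 1 and of 10.16 in that of control rat 1. In the other HDM rats it was -5.80, -6.54, -6.39 and -6.26, and in the other control rats -3.62 and -6.54. Control rat 2, at -3.62, was the only one of these 6 arrays on which Gpx5 was well above background. The smaller of both high values was 9609-fold above the highest of the other 6. No probe of the 6 genes was saturated on any array.

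Lcn8 had a log2 signal of 9.92 in HDM rat 1 and of 9.52 in control rat 1. The remaining HDM rats gave -5.83, -6.64, -5.92 and -4.46, and the remaining control rats -3.49 and -4.72. Here too control rat 2, at -3.49, was the only array of the 6 with Lcn8 well above background, and the gap was 8241-fold. The other Lcn8 probe was much dimmer on both high arrays but had its highest adipose signals there too, at -2.23 in HDM rat 1 and -2.05 in control rat 1. It was not well above background on the other 6 adipose arrays, where it lay between -6.69 and -4.62.

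Cst11 had a log2 signal of 8.84 in HDM rat 1 and of 8.98 in control rat 1, a difference of 1.10-fold. It lay between -6.60 and -5.24 on the other 6 arrays and was not well above background on any of them. Both high values were at least 8933-fold above these, taking for each dim array the higher of its own value and of the lowest signal of any probe well above background on that array.

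Crisp1 had a log2 signal of 6.71 in HDM rat 1 and of 6.22 in control rat 1. On the other 6 arrays it lay between -6.80 and -5.68, never well above background, and both high values were at least 1453-fold above these.

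Adam7 had a log2 signal of 8.97 in HDM rat 1 and of 9.64 in control rat 1. It was -3.67, -3.63, -2.49 and -2.18 in the other HDM rats and -3.80 and -2.94 in the other control rats. On 4 of these 6 arrays it was still well above background, so a weak signal was present outside the high pair, which stood 2270-fold above the highest of them.

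**Figure D1:**
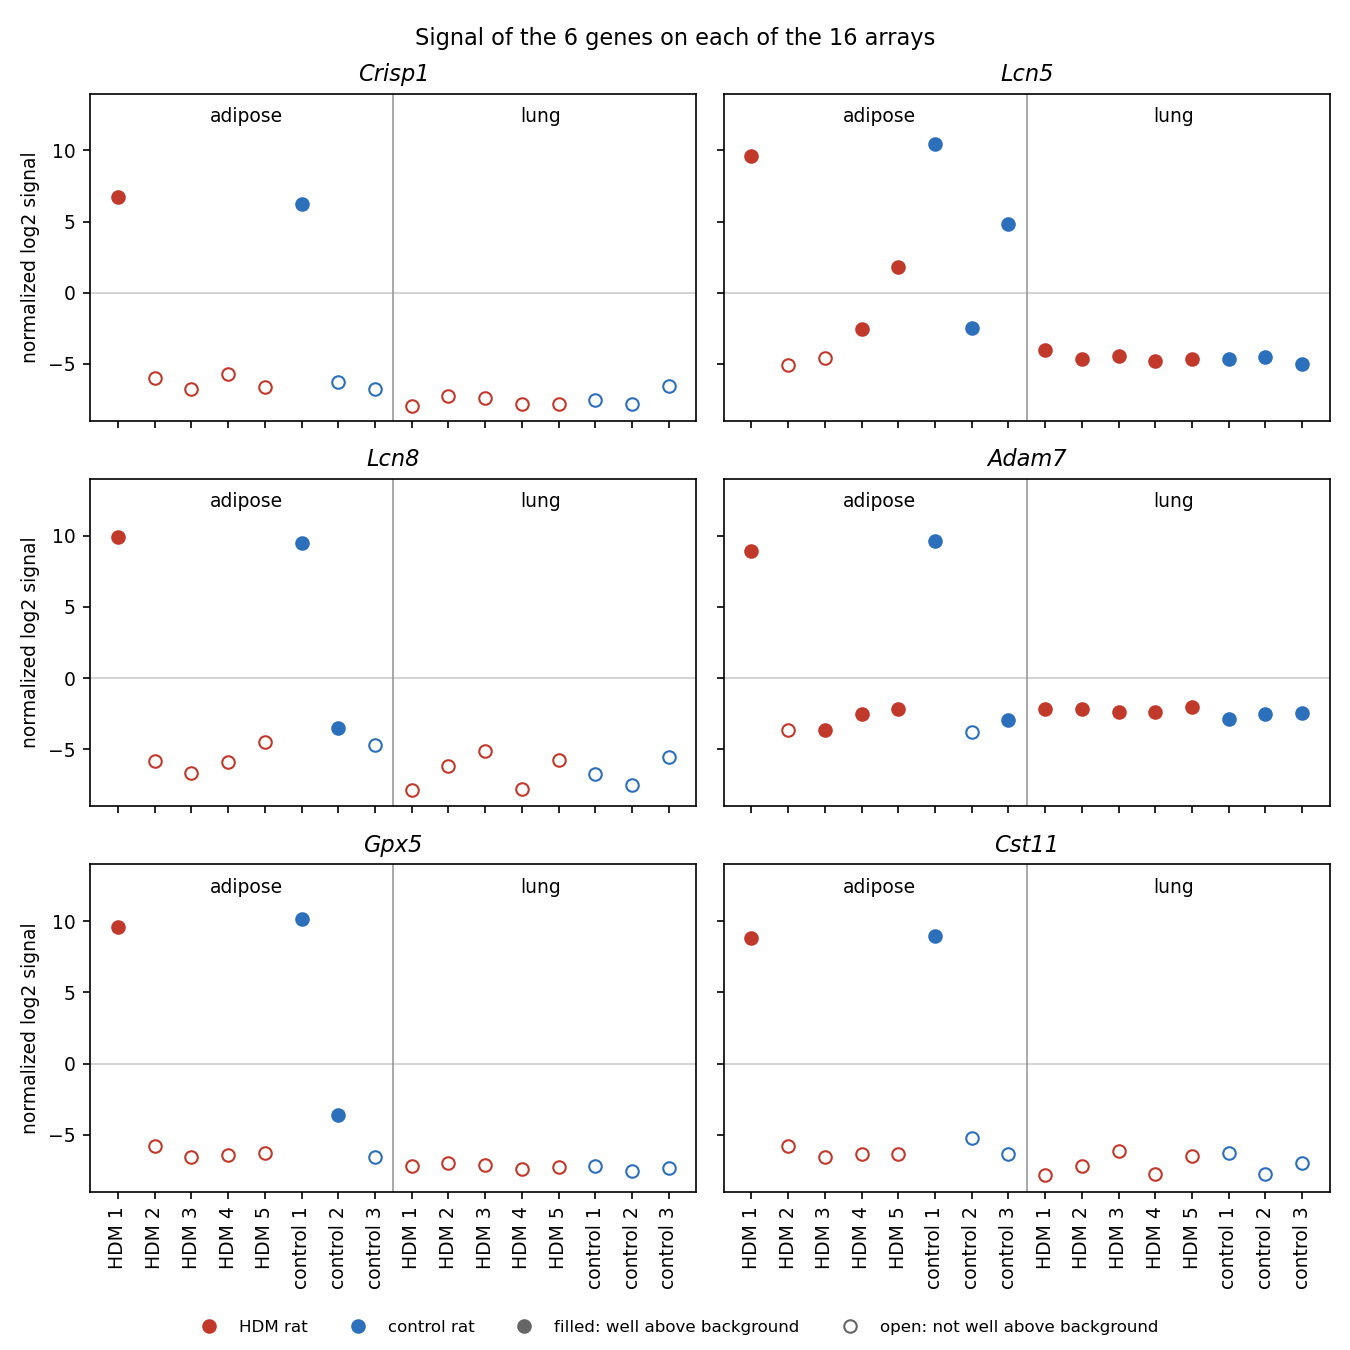
Normalized log2 signal of the 6 genes (vertical axis) on each of the 16 arrays (horizontal axis, adipose left and lung right). Red points are HDM rats, blue points control rats, and filled points were well above background. All 6 genes are high on the adipose arrays of HDM rat 1 and control rat 1, Lcn5 alone reaches values above 0 on 2 further adipose arrays, and no lung array is high.

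Lcn5 departed from the other 5 genes. It had a log2 signal of 9.59 in HDM rat 1 and of 10.48 in control rat 1, but also of 4.82 in control rat 3 and of 1.80 in HDM rat 5. It was well above background at -2.54 in HDM rat 4 and at -2.49 in control rat 2, and not in HDM rat 2 (-5.06) or HDM rat 3 (-4.62). The lower of the high pair was 27.2-fold above control rat 3. The Lcn5 signal therefore covered a range of 15.54 log2 units in adipose tissue with values in between, whereas the other 5 genes had no value between -2.18 and 6.22.

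Other genes shared this intermediate pattern, and they were picked after their values had been seen. Lcn10, a lipocalin gene of the same cluster, was at 7.58 in HDM rat 1, 7.87 in control rat 1, 3.49 in control rat 3 and -1.09 in HDM rat 5, and at or below -2.54 elsewhere. Obp2a, which encodes an odorant-binding lipocalin, was at 3.83, 4.86, 1.05 and -2.27 on the same 4 arrays and at or below -4.80 elsewhere. Ces5a, a carboxylesterase gene known from the epididymis, was at 1.73, 6.03, 1.59 and -1.25 and at or below -4.62 elsewhere. Aqp9, which encodes a water and glycerol channel, was at 7.83, 7.27, 1.98 and 0.29 and at or below -1.53 elsewhere. In each of these genes control rat 3 ranked above HDM rat 5, and both ranked above the 4 remaining rats. The epithelial gene Cdh1, which encodes E-cadherin, was highest in control rat 1, followed by HDM rat 1 (2.11), control rat 3 and HDM rat 5 (-1.87), and was at -5.64 or less in the 4 remaining rats.

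**Figure D2:**
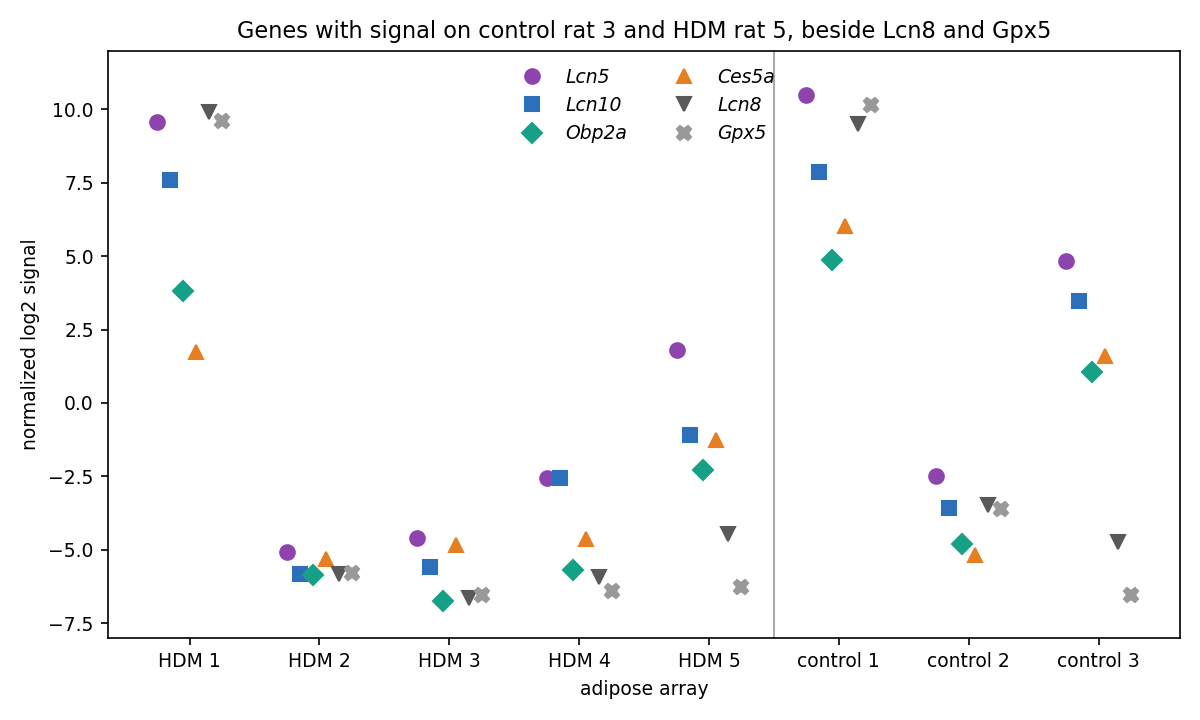
Normalized log2 signal (vertical axis) of Lcn5, Lcn10, Obp2a, Ces5a, Lcn8 and Gpx5 on the 8 adipose arrays (horizontal axis, HDM rats left and control rats right of the line). Each symbol is 1 gene on 1 array. Lcn5 is at 4.82 in control rat 3 and 1.80 in HDM rat 5, where Lcn8 is at -4.72 and -4.46.

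All 6 genes were well above background on 2 adipose arrays, those of HDM rat 1 and control rat 1. Of the others, control rat 2 had 3 of the 6 genes well above background, HDM rats 4 and 5 and control rat 3 had 2, HDM rat 3 had 1 and HDM rat 2 had none. The adipose arrays of HDM rat 1 and control rat 1 thus carried transcripts of every gene of the set, those of control rat 3 and HDM rat 5 carried Lcn5 in clear amounts, and the other 4 had only weak signals. Each array is a single measurement of 1 rat, so the differences between single arrays have no replicate error.

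In the lungs of the same rats the genes were at or near background. Crisp1, Lcn8, Gpx5 and Cst11 failed the background test on all 8 lung arrays, where Gpx5, for example, lay between -7.53 and -6.96. Lcn5 and Adam7 were well above background on all 8 lung arrays at a low level, Lcn5 between -4.98 and -4.04 and Adam7 between -2.90 and -2.06. The lungs of HDM rat 1 and control rat 1 did not stand apart, with Lcn5 at -4.04 and -4.63 and Adam7 at -2.20 and -2.90. Within HDM rat 1 the adipose signal was 12641-fold above the lung signal for Lcn5 and 2299-fold for Adam7, and within control rat 1 it was 35300-fold and 5939-fold. For the 4 genes below background in lung, the signal in adipose tissue of these rats was at least 3489-fold (Crisp1 in control rat 1) to at least 67039-fold (Lcn8 in HDM rat 1) higher. In the other 6 rats Adam7 was no higher in adipose tissue than in lung wherever both were measured, with differences between -1.26 and -0.12 log2 units. Lcn5 was higher in adipose tissue in the 4 of these rats in which both were measured, by 893-fold in control rat 3, 89.4-fold in HDM rat 5, 4.69-fold in HDM rat 4 and 4.14-fold in control rat 2. In control rat 2, Lcn8 was at least 5.89-fold and Gpx5 at least 5.38-fold above lung.

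The level on both high adipose arrays was close for the 6 genes. Control rat 1 minus HDM rat 1 was 0.89 for Lcn5, 0.67 for Adam7, 0.55 for Gpx5, 0.14 for Cst11, -0.40 for Lcn8 and -0.49 for Crisp1 on the log2 scale. Some other epididymis genes differed more between these arrays. Spink13, a serine protease inhibitor gene, was at 5.69 in control rat 1 and -0.16 in HDM rat 1, and Lcn12, chosen after its values had been seen, was at 7.56 and 2.88. The beta-defensin gene Defb17 was at 9.03 and 3.95. Cst8 went the other way, at 6.73 in control rat 1 and 8.13 in HDM rat 1.

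The pattern extended to the other genes listed for the epididymis, of which 20 of 27 have a probe. Among the symbols without a probe is Crisp4, the older name of the member Crisp1. On the adipose arrays of HDM rat 1 and of control rat 1, 19 of the 20 were well above background, against 6 to 10 of the 20 on the other 6 adipose arrays and 5 to 9 on the lung arrays. These arrays held the 2 highest adipose signals for 19 of the 20 genes, whereas this was so for 13.6% of the 45315 probes with a value on all 8 arrays. The exception was Serpina1f. The median difference of the 20 genes from their own median over the 8 arrays was 8.60 in HDM rat 1 and 9.24 in control rat 1, against -0.04 and 0.07 for all probes well above background on some adipose array. This list was written with results of these arrays known, and the counts are a description.

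Among these genes, Cst8, a cystatin relative, was at 8.13 in HDM rat 1 and between -6.84 and -6.06 on the other arrays except control rat 1. Spag11bl, of the sperm-associated antigen family related to defensins, was at 8.50 in HDM rat 1 and 8.96 in control rat 1, and at -4.82 or less elsewhere. The lipocalin genes Lcn9 (8.91 and 8.16) and Lcn6 (6.11 and 6.86) were at -4.36 or less elsewhere. Ly6g5b was at 6.46 and 6.84, with -5.70 as its highest other value. Rnase10, which encodes a secreted protein of the ribonuclease A family known from the epididymis, was at 8.80 and 9.27, and at -2.45 or less elsewhere. Cst12 was at 6.73 and 6.40, but also at -1.38 in HDM rat 2. The array of HDM rat 2 had 1224 outlier spots against 355 to 444 on the other 7 adipose arrays. That array also held the highest of the 6 other values for Spink13 (-1.98) and the highest adipose value for the airway gene Scgb1a1 (-0.65). Outlier spots were left out of these values, and whether the remaining spots of that array were affected was not tested.

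The 10 gene symbols whose adipose profile was most like that of the 6 genes were found by the mean absolute difference between median-centered profiles over the 8 arrays. They were Lcn9, Rnase10, Lcn6, Ly6g5b, Cst8, Spag11bl, Pate-f, Defb44, Cstdc2 and Defb41, with mean differences between 0.57 and 0.90 log2 units, out of 31793 probes compared. Of these, 6 stand on the list of other epididymis genes. Pate-f was at 6.20 in HDM rat 1 and 5.72 in control rat 1, and Cstdc2 at 8.57 and 9.05, and neither exceeded -4.87 on the other 6 arrays. Among the 6 genes themselves, Lcn8 was closest to their mean profile (0.62) and Lcn5 farthest (2.74). Of all 37 beta-defensin genes with a probe, 20 had their highest 2 adipose signals in HDM rat 1 and control rat 1, beside 13.6% of all probes, and 22 to 24 were well above background on these arrays against 6 to 13 on the others.

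**Figure D3:**
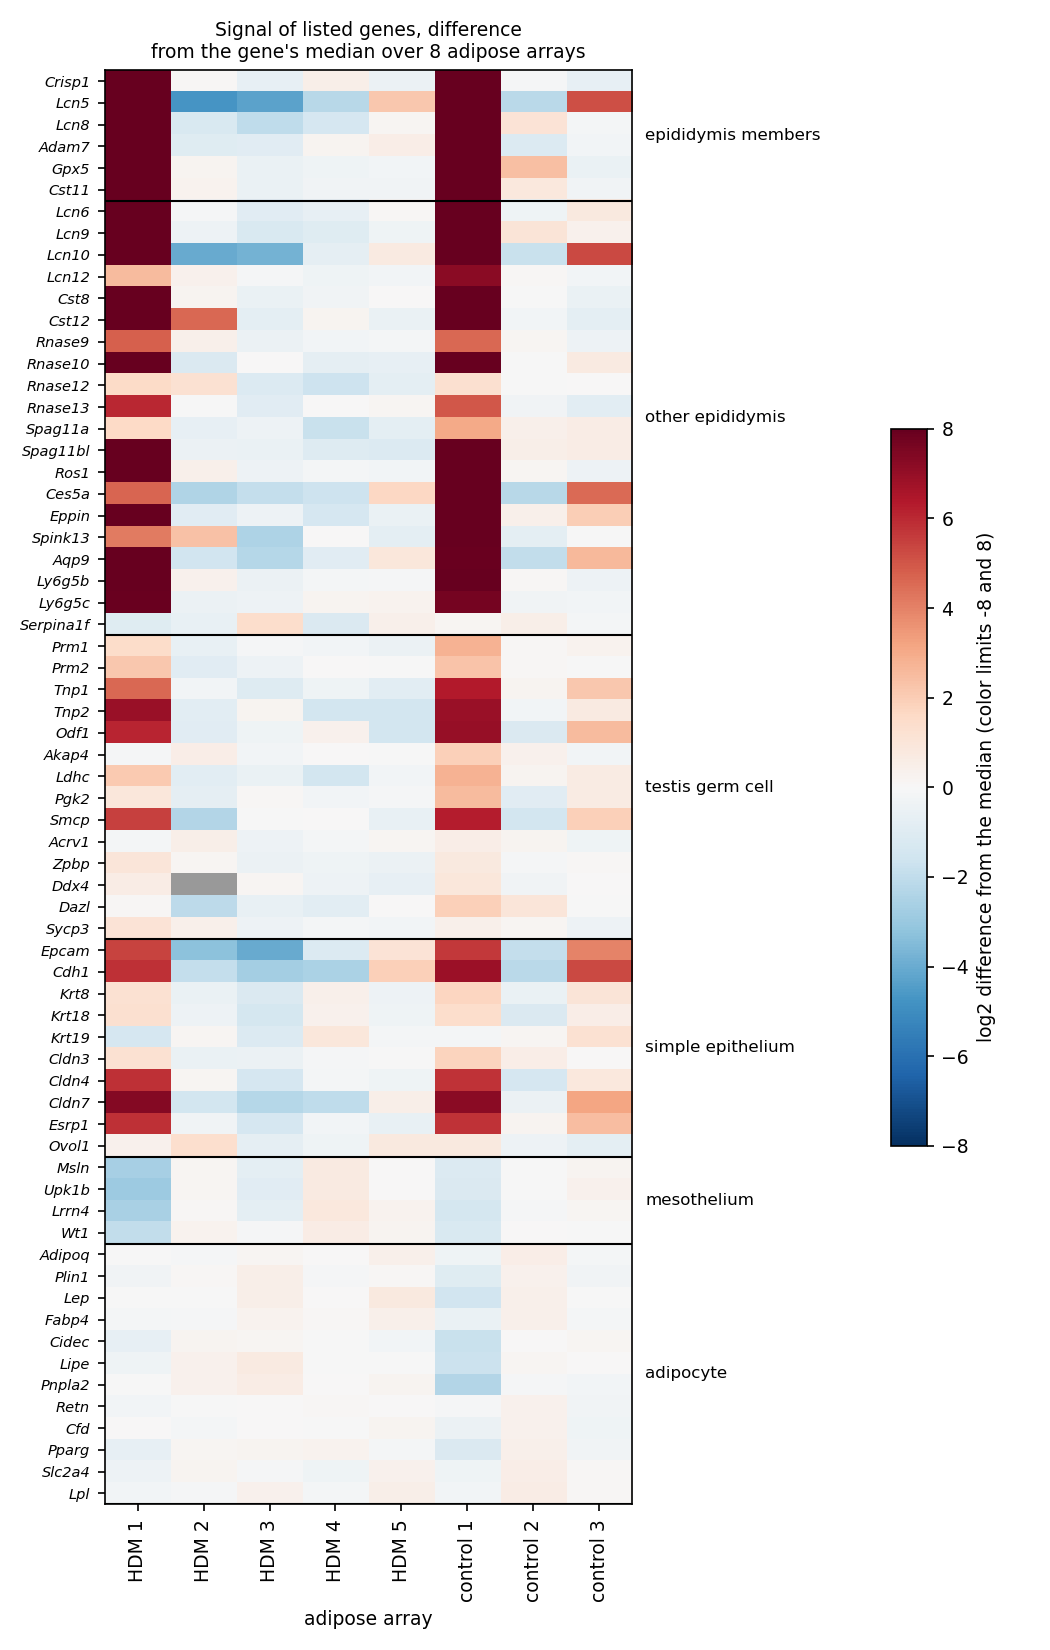
Log2 difference of each listed gene from its own median over the 8 adipose arrays (color, limits -8 and 8), with genes as rows grouped by list and arrays as columns; the gray cell is Ddx4 on HDM rat 2, which has no value there. The columns of HDM rat 1 and control rat 1 are red for the epididymis genes, for some germ cell and epithelial genes, and blue for the 4 mesothelium genes.

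Some of these genes, but not all, also lie together in the genome. Crisp1, Adam7 and Gpx5 are on chromosomes 9, 15 and 17, apart from the other members. In the RefSeq gene order Lcn8 and Lcn5 are neighbors on chromosome 3, followed by Lcn6, Lcn10 and Obp2a, and Cst11, Cst12 and Cst8 lie together elsewhere on that chromosome. Taking 5 genes on each side of every member gave 50 neighbors, of which 22 have a probe. Of these 22, 6 were over 4-fold higher on both high arrays than on each of the other 6, and they were Lcn6, Lcn10, Obp2a, Cst12, Cst8 and Defb17. Probes past this fold and well above background on both high arrays made up 1.11% of the 45315 with 8 adipose values. Lcn6, Lcn10, Cst12 and Cst8 already stand on the list of other epididymis genes. The remaining 16 did not pass this fold, among them Gpx6 near Gpx5 and the cystatin relatives Cstl1 and Cstdc1 near Cst11. Fcna, the ficolin gene beside Lcn8, was lower on these arrays, at 1.17 and 0.97 against 2.13 to 3.21, and Gpx6 was between -3.48 and -2.69 on all 8.

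Markers of other cell types were measured on the same arrays. Of the 14 listed germ cell genes, 11 had their 2 highest adipose signals in HDM rat 1 and control rat 1, beside 13.6% of all probes. The count includes genes at background, and 10 of the 14 were well above background on any adipose array. Tnp2, a transition protein of sperm chromatin, was at 2.08 and 2.07 against -4.11 or less. Odf1, of the sperm tail, was at 1.24 and 2.14 against -2.34 or less, and Smcp, of the sperm mitochondrial capsule, at 2.13 and 2.95 against -1.47 or less. The sum of the 14 germ cell genes, in multiples of the 75th percentile signal, was 13.1 in HDM rat 1 and 20.8 in control rat 1 against 0.391 to 1.31 on the other 6 adipose arrays. Of the 7 listed somatic testis genes, none had its 2 highest signals in this pair. Their summed signal was 15.0 and 9.24 against 15.7 to 19.7, most of it from Cyp11a1, a steroid synthesis gene that was lowest in control rat 1 and lay between 3.84 and 4.26 on the other 7 arrays. Without Cyp11a1 the sum was 0.696 and 0.647 against 0.527 to 0.623. Cyp17a1, of the same pathway, was at -2.55 and -2.71 in the pair, at -2.31 in control rat 3 and at -3.84 or less elsewhere, and Insl3, the Leydig cell hormone, lay between -1.52 and -1.10 on all 8 arrays. Of 6 seminal vesicle and prostate genes, 2 had their highest signals in this pair. Tgm4, a prostate transglutaminase, was at 1.10 and 1.09 there and between -0.94 and -0.50 on the other 6 adipose arrays.

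Genes of simple epithelium were higher as well. Of 10 such genes, 8 had their 2 highest adipose signals in HDM rat 1 and control rat 1, beside 13.6% of all probes. The summed signal was 67.6 and 82.1 there against 9.81 to 43.1 on the other 6 arrays. Their median log2 signal was 2.26 and 2.58 in this pair, 1.34 in control rat 3 and -1.66 or less elsewhere. Cldn7 and Cldn4, which encode tight junction proteins, were at 2.79 and 2.60 in HDM rat 1 and at 2.65 and 2.51 in control rat 1, and at -1.41 or less elsewhere. Esrp1, an epithelial splicing factor, was at 1.01 and 0.93 against -2.34 or less. Genes of mesothelium, the layer that covers abdominal fat, ran the other way. All 4 measured, Msln, Upk1b, Lrrn4 and Wt1, had their 2 lowest adipose signals in this pair, as did 12.4% of the 45315 probes with a value on all 8 arrays. Msln was at 3.92 in HDM rat 1 and 5.53 in control rat 1, against 5.81 to 7.29 in the other rats.

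Adipocyte markers were present in every adipose sample. All 12 listed genes were well above background on all 8 adipose arrays. Their summed signal was 2263 in HDM rat 1 and 1775 in control rat 1 against 2086 to 3156 on the other 6 and 25.2 to 54.6 in lung. Of the 12 genes, 6 had their 2 lowest adipose signals in HDM rat 1 and control rat 1, beside 12.4% of all probes. For 0 of the 12 were the 2 highest signals in this pair. Pnpla2, the adipose triglyceride lipase gene, was at 3.79 in control rat 1 against 5.92 to 6.71 in all other rats, and Lep, the leptin gene, at 5.22 against 6.70 to 7.49. The 7 lung epithelium markers were mixed in adipose tissue. Sftpa1, a surfactant protein gene, lay between -6.42 and -5.63 on all 8 arrays, never well above background, and at 7.28 or above in lung. Napsa, a protease gene, lay between 0.64 and 1.82 and Ager between -0.08 and 0.92, both well above background on all 8 adipose arrays. In bulk tissue, fewer cells of a type and less RNA per cell cannot be told apart, and the part of any other tissue in these signals was not tested.

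The contrast of HDM rats with control rats was then examined, since 1 high array lay in each group. In the limma fit over all 45598 probes, none of the 6 genes was called in adipose tissue at an adjusted p below 0.05 and a fold change above 1.5, beside a background of 0% of probes called. That count of 0 was also given by the methods' t-test after adjustment, with 4515 probes below an unadjusted p of 0.05 in limma and 4180 in the methods' t-test. The groups overlapped for every member, because the values of HDM rat 1 and control rat 1 exceeded those of all other rats.

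All 6 differences were negative, and none was distinguishable from the spread between rats. The HDM rats averaged -3.08 ± 7.10 (SD, n = 5) for Gpx5, and the control rats 0.00 ± 8.92 (SD, n = 3), a log2 difference of -3.08 (SE 4.91, limma adjusted p = 0.832). For Lcn5 the means were -0.17 ± 6.09 and 4.27 ± 6.50, with the largest difference of the 6 at -4.44 (SE 3.95, limma adjusted p = 0.785). The other 4 genes had differences of -3.02 (Lcn8), -2.38 (Cst11), -1.57 (Adam7) and -1.41 (Crisp1), with limma adjusted p between 0.827 and 0.911. The 95% confidence interval reached from -10.73 to 7.92 for Crisp1 and from -14.41 to 8.25 for Gpx5. The residual SD of the 6 genes lay between 6.18 and 7.75 log2 units, against a median of 0.42 over all probes.

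The sign is read beside the sizes of the groups. The high array was 1 of 5 in the HDM group and 1 of 3 in the control group, so a like signal on both added more to the control mean. For Cst11 the height of these arrays over the median of the other 6 was 15.17 in HDM rat 1 and 15.31 in control rat 1. Divided by group size, this added 3.03 to the HDM mean and 5.10 to the control mean, a difference of -2.07 beside the -2.38 measured. For the 6 genes this arithmetic gave differences between -2.31 and -1.59, and it came closest to the measured value for Crisp1 (-1.59 beside -1.41) and was farthest from it for Lcn5 (-1.91 beside -4.44).

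Without both arrays the intervals were narrower for all 6 genes and most widely open for Lcn5. Crisp1 then differed by 0.25 (SE 0.38, interval -0.69 to 1.18) and Adam7 by 0.38 (SE 0.54, interval -0.97 to 1.73), both with the sign turned. Cst11 differed by -0.48, Gpx5 by -1.17 and Lcn8 by -1.61. On the remaining 6 arrays Crisp1 and Cst11 were never well above background, and Gpx5 and Lcn8 were so on 1 only. The differences of these genes therefore compare signals mostly at background, and neither their sign nor their narrow intervals measure expression. Lcn5 still differed by -3.77 with an interval from -10.47 to 2.93, and control rat 3 and HDM rat 5 remained in that fit. All limma adjusted p were at or above 0.739. Leaving out control rat 1 alone turned the sign for 5 of the 6 genes, for example to 2.84 for Crisp1, and left Lcn5 at -1.33. With HDM rat 1 alone left out, the differences were again negative, and Crisp1 was at -4.00.

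**Figure D4:**
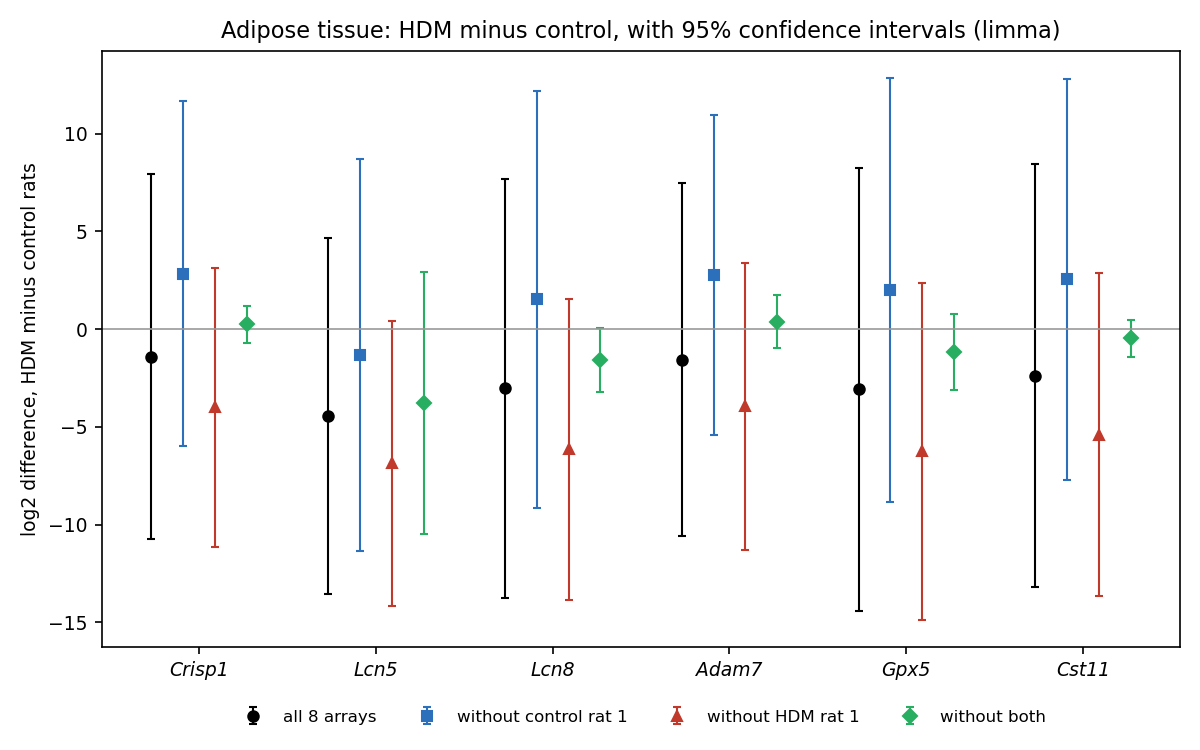
Log2 difference, HDM minus control rats, in adipose tissue for the 6 genes (vertical axis), with 95% confidence intervals from limma. Points are the fit with all 8 arrays (black), without control rat 1 (blue), without HDM rat 1 (red) and without both (green). The black intervals all hold 0, and the points without control rat 1 all lie above 0 but for Lcn5.

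In lung none of the 6 genes was called either, where 390 probes or 0.855% of all tested were. Lcn5 was higher in HDM rats by 0.20 (SE 0.19, limma adjusted p = 0.875). The 5 HDM rats had an Adam7 signal of -2.23 ± 0.14 (SD), and the 3 control rats one of -2.62 ± 0.24 (SD), a difference of 0.39 (SE 0.14, limma adjusted p = 0.381). No difference is given for the other 4 genes, which were below background in both groups. The same 2 genes could thus be compared in lung with intervals of -0.24 to 0.65 for Lcn5 and 0.06 to 0.71 for Adam7, far narrower than those in adipose tissue.

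Other probes were high on the same arrays. Of the 45315 probes with a value on all 8 adipose arrays, 501 were well above background on both high arrays and more than 4-fold higher there than on each of the other 6. They covered 302 gene symbols and included all 6 members and 15 of the 20 other epididymis genes. Of the 501, 355 (70.9%) were lower in HDM rats by more than 1.5-fold and 0 were higher, beside 19.8% and 4.21% of all probes. Since the choice of the 501 and the group sizes push this difference below 0, nothing is read from it. With each array scaled to its median instead, which moved the median difference of all probes from -0.15 to 0.14, 255 of the 501 were lower and 1 was higher, and of all probes 10.4% were lower and 11.9% higher. Without both arrays 37.7% of the 501 were lower and 2.59% higher, beside 15.4% and 5.16% of all probes. The 501 were chosen for their signal on the arrays then left out, and many probes of this kind are dim elsewhere. Of the 45315 probes, 390 were well above background on both high arrays and on no other adipose array. Nothing is read from these shares either. The 355 probes lower with all 8 arrays made up 3.95% of the 8984 probes that were lower by this fold, so most of the lower probes were others. No probe was called in adipose tissue without both arrays, with 3126 below an unadjusted p of 0.05 in limma, or with the mean signal of the 6 genes as a covariate, with 4978.

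**Figure D5:**
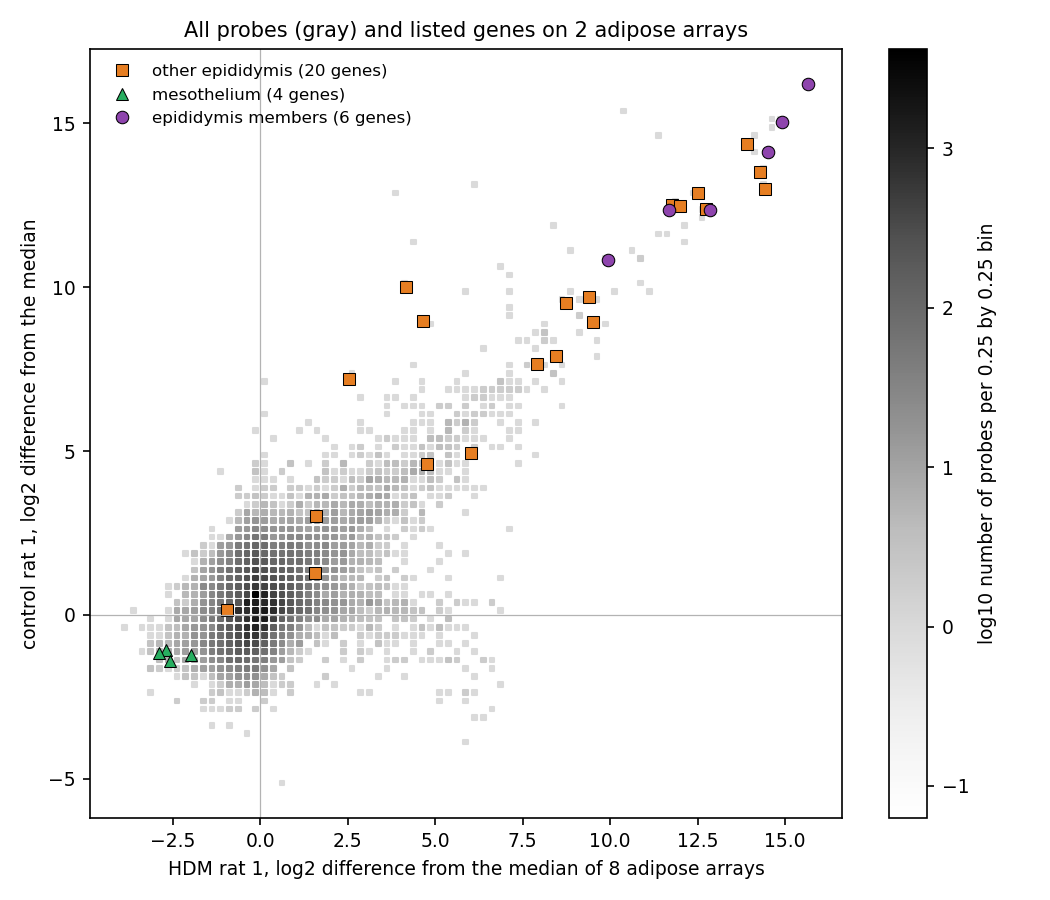
Difference of each probe from its median over the 8 adipose arrays, on the array of HDM rat 1 (horizontal axis) and of control rat 1 (vertical axis), in log2 units. Gray squares are bins of 0.25 by 0.25 shaded by the log10 number of probes, and symbols are the 6 members, the 20 other epididymis genes and 4 mesothelium genes. The members lie at the upper right end and the mesothelium genes at the lower left.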

How the data were processed

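Brown Norway rats, 5 given HDM and 3 given saline, were grouped by the labels, with 1 array for each rat in lung and in adipose tissue. The authors deposited spot intensities of each SurePrint rat array, extracted with Agilent Feature Extraction 12.0.3.1 (background-subtracted and detrended, not normalized between arrays, per the file headers). The authors also deposited a table of normalized log2 values, whose steps are not given in the sources used here and in which 39 cells held a month name. Control spots and outlier spots were left out, replicate spots were averaged per probe after log2 transformation, and every array was shifted to its 75th percentile. These values lay within 0.1 log2 units of the deposited log2 table in 100% of cells, after both were centered on the probe median within a tissue. No sample column was left unused. The 75th percentile signal was 111 to 240 in adipose tissue and 376 to 488 in lung, and between 51.0% and 68.8% of probes were well above background. The number of arrays limits the precision. As nothing but the labels separates the samples into rats, p-values measure the spread between these samples.

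Probes were named through their RefSeq accessions and a RefSeq gene table of the GRCr8 assembly, and promoter sequences came from RefSeq on the same assembly (3 of 6 members matched). HDM and control rats were compared in each tissue by a linear model over 45598 probes (limma 3.58.1 on R 4.3.3), with Benjamini–Hochberg adjustment and thresholds of 0.05 and 1.5-fold. The fit was tested on simulated data. Tables and figures were made with Python 3.11.15, pandas 2.3.3 and matplotlib 3.10.9. Alternatives were the methods' t-test, other normalizations and background correction, a filter on dim probes, arrays left out, blocks and the members' mean signal as a covariate. The members and gene lists were chosen with earlier results of these data known. Named genes are the members, up to 8 other epididymis genes and up to 4 genes of any other list with the largest highest-minus-median signal, and the 10 symbols most like the members. Genes outside this rule, the gene neighbors and the beta-defensins were chosen after values were seen.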

Additional observations from a re-analysis of the deposited data

How the results depend on the processing

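The arrays of HDM rat 1 and control rat 1 held the 2 highest adipose signals for all 6 genes under all 6 normalizations, with a smallest gap between 4.44 and 4.78 log2 units. None of the 6 genes was called in any alternative, with limma adjusted p, or those of the methods' t-test, between 0.451 and 1.00 in adipose tissue and between 0.188 and 1.00 for Lcn5 and Adam7 in lung. Over the 6 genes and all alternatives, the sign in adipose tissue was kept by 108 of 121 values. This count is no measure of support for a difference. The methods' t-test and the filter on dim probes leave the difference itself unchanged. Most other alternatives keep both high arrays and so the unequal group sizes that push the sign below 0. The other 4 genes were below background in lung, so no difference was taken there.

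With HDM rat 1 and control rat 1 left out, Crisp1 was at 0.25 and Adam7 at 0.38. Cst11 was at -0.48, Gpx5 at -1.17, Lcn8 at -1.61 and Lcn5 at -3.77. With HDM rat 5 and control rat 3 left out too, Crisp1 was at 0.090 and Adam7 at 0.54. Cst11, Gpx5 and Lcn8 were then more negative, at -0.998, -2.63 and -2.64, and Lcn5 was less negative, at -1.59. This choice was made after seeing the data and assumes that the lone control array varies like the others. With the members' mean signal as a covariate, which the members themselves form, Crisp1 was at 1.09, Adam7 at 0.85 and Cst11 at 0.51. Gpx5 was then at -0.07, Lcn8 at -0.15 and Lcn5 at -2.24. Leaving out each rat in turn gave -4.00 to 2.84 for Crisp1, -3.96 to 2.77 for Adam7, -5.40 to 2.54 for Cst11, -6.35 to 2.00 for Gpx5, -6.15 to 1.52 for Lcn8 and -7.82 to -1.33 for Lcn5.

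The count of probes called in adipose tissue was 0 in the main setting and in the 8 fits that each omit a rat, but 7 under quantile normalization, 3 under median scaling, 1 under normexp with quantile normalization and 1 with slide row as a block. Of probes past 1.5-fold, 82.5% were lower in HDM rats, against 52.1% under quantile normalization and 46.6% under median scaling. The cause was not tested. In both tissues slide row 1 held HDM rats only, so the fit with row as a block compares HDM rat 5 with the control rats. Its counts therefore cannot tell an effect of row from that of treatment. In lung, 390 probes became 100 to 333 with each rat left out in turn, 597 without dim probes, 41 without HDM rat 1 and control rat 1, and 25 with slide row as a block.

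The numbers of HDM and control rats are not stated to pair them. Same-numbered rats had deviations correlated at 0.59, 0.14 and 0.10 in adipose tissue and at -0.06, -0.08 and 0.05 in lung. The 0.59 belongs to HDM rat 1 and control rat 1, the high arrays. Rats of different number had correlations from -0.56 to 0.36 in adipose tissue and from -0.09 to 0.06 in lung. With the replicate block, no probe was called in adipose tissue or in lung (0 of 45598 in each). HDM rats 4 and 5 have no control rat of the same number and add nothing to the difference in this fit. It rests on rats 1 to 3 of each group, with few residual degrees of freedom, so fewer calls follow from the design alone. In adipose tissue Crisp1 was then at 0.24, Cst11 at -0.32, Adam7 at -0.41, Gpx5 at -0.91, Lcn8 at -1.28 and Lcn5 at -4.30.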
